A study of Mesocricetus auratus with 36 samples.

Results

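The Kctd, Klhl and Btbd genes encode proteins with a BTB domain, and they were examined in the wall of the third ventricle of golden hamsters through a hibernation season. Members were all annotated genes whose symbol is Kctd, Klhl or Btbd followed by a number and whose mean level over the 36 libraries was at least 1 CPM, a gene's count scaled to a common library total. Of 71 such symbols, 60 reached that level, in a table of 32340 genes: 20 of 21 Kctd genes, 28 of 37 Klhl genes and 12 of 13 Btbd genes. The members closest above the limit were Klhl4 at 1.02 CPM, Kctd19 at 1.11 CPM and Kctd9 at 1.32 CPM. The closest below it were Klhl42 at 0.807 CPM, Kctd8 at 0.797 CPM and Klhl1 at 0.79 CPM, and these are not counted here. All 60 members passed the filter on low counts and were tested.

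A BTB domain lets a protein pair with itself or with the cullin CUL3, the scaffold of a large class of ubiquitin ligases. In such a ligase the BTB protein is the adaptor that holds the substrate, through kelch repeats in most Klhl proteins, while CUL3 brings RBX1 and the ubiquitin-carrying enzyme. Attachment of NEDD8 to the cullin switches the ligase on, and the COP9 signalosome removes it. Some Kctd proteins do other work: Kctd8, Kctd12 and Kctd16 are auxiliary subunits of the GABA-B receptor.

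The tissue was the ependymal strip of the hypothalamus, cut out by laser to enrich for tanycytes, the long glial cells that line the third ventricle. RNA came from male hamsters, with 6 libraries in each of 6 groups, and per the labels 6 brains were taken per group. The long photoperiod group was kept at 14 h of light a day and 22 °C, and its libraries are labelled 8 months of age. Per the protocol, animals of this group were sampled at the outset as well as when the experiment closed, so ages in comparisons with it rest on the age label alone. The other 5 groups were kept at 10 h of light and 8 °C. Pre-hibernation animals had 4 weeks of this and were 4 months old. Late pre-hibernation, interbout euthermic and torpid animals had 8 to 12 weeks of it and were 6 months old. The late pre-hibernation animals had not yet been torpid, whereas interbout euthermic and torpid animals were sampled after 3 cycles of torpor and arousal. Interbout euthermic animals, warm between bouts, were taken 23 h after rewarming, late in the warm phase. Torpid animals were taken 13 h into a bout, around its middle. Refractory animals, 8 months old, ended hibernation spontaneously at about 20 weeks, and no bout had occurred in the 2 weeks or more before sampling. All animals had carried an abdominal temperature logger.

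Totals were between 5161108 and 28541745 counted fragments per library. Ribosomal RNA took under 1% of the counts in 33 libraries and 7.21% to 41.8% in the other 3, which are refractory 4, pre-hibernation 5 and interbout euthermia 6, called rRNA-rich below. Their totals were 5161108, 12744682 and 14113076, against at least 17139085 elsewhere. Of 20 tanycyte markers 19 were tested, and none of those stood at 0 over a group, with Rax at 117 and Vim at 1214 CPM on average. Transcripts of neurons, oligodendrocytes and other neighbouring cells were present too. In such bulk tissue, fewer cells of a type and less RNA per cell cannot be told apart.

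Levels between members were compared as normalised CPM per kilobase of exon, averaged over the 36 libraries. Kctd14 was the highest member, at 133 CPM per kb, followed by Kctd5, an adaptor for G protein beta-gamma subunits, at 58.5 CPM per kb. Kctd17, an adaptor for the cilium regulator trichoplein, came next among the Kctd genes at 22.4 CPM per kb. Among Klhl genes the highest levels were those of Klhl7, a retinitis pigmentosa gene, at 34.8 CPM per kb, of Klhl22, an adaptor for the mTORC1 regulator DEPDC5, at 25.0 CPM per kb, and of Klhl5 at 23.4 CPM per kb. The Btbd genes spanned a narrower range: Btbd1, a partner of topoisomerase I, and Btbd6 both stood at 19.3 CPM per kb and Btbd17 at 18.5 CPM per kb. At the low end were Klhl4 at 0.285, Kctd19 at 0.368 and Kctd16 at 0.371 CPM per kb. Of these highest 3 members in each family, only Btbd6 was called in torpid against interbout euthermic animals.

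**Figure D1:**
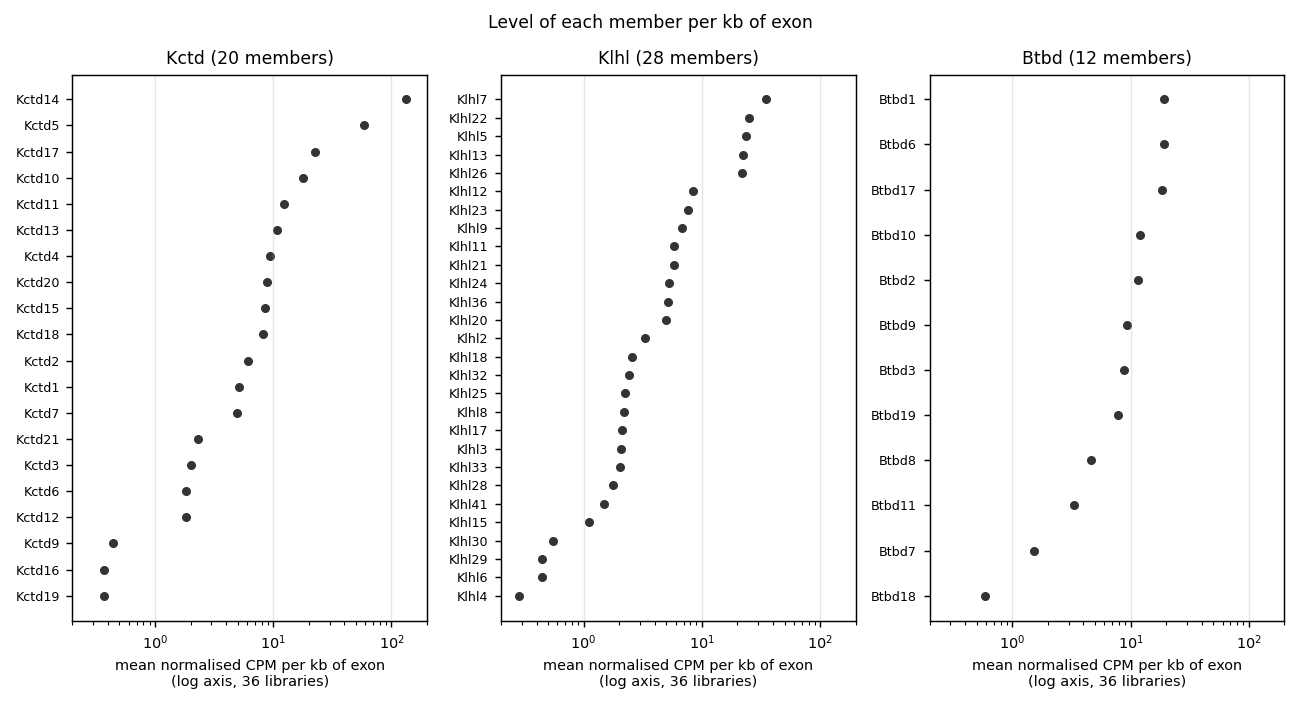
Mean level of each of the 60 members over 36 libraries, in normalised CPM per kb of exon on a log axis, with 1 panel per family. Kctd14 and Kctd5 stand above all other members, and each family reaches down to under 1 CPM per kb.

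A member was called when its p-value, adjusted by Benjamini-Hochberg over all 17926 genes tested by edgeR's quasi-likelihood test, was under 0.05. Over the 6 groups 18 of 60 members were called (30%), against 14.6% of all genes tested. They comprised 6 Kctd, 8 Klhl and 4 Btbd genes, and Kctd21 had the smallest p among them (adjusted p = 1.43e-07). The fall of Kctd21 in torpor was already known from these data when the members were chosen. Among the 15259 genes with a mean of 1 CPM or more, the limit set for members, 15.7% were called over the 6 groups. The torpid group had the lowest mean of the 6 groups in 27 members (45%), as it did in 22.0% of all genes tested. It had the highest mean in 16 members (26.7%), close to the 21.3% over all genes. Without the 3 rRNA-rich libraries 33 members were called, against 27.7% of genes. The torpid mean was again lowest in 27 members, as it was in 20.8% of all genes tested.

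To ask what differs between the cold and the warm phase of the torpor cycle, torpid animals were compared with interbout euthermic animals of the same age, day length and cage temperature. Levels of 7 members fell and levels of 3 rose, so that 10 of 60 were called (16.7%), against 4.06% of all genes tested (2.93% lower and 1.13% higher). Of genes with a mean of 1 CPM or more, 4.7% were called (3.4% lower and 1.3% higher). The 7 were Kctd21, Kctd20, Btbd3, Btbd6, Btbd7, Klhl15 and Klhl28, and the 3 were Kctd6, Klhl23 and Btbd11. The median log2 fold change over the 60 members was -0.17, with 37 below 0, beside a median of 0.01 over all genes tested. By family, 3 of 20 Kctd, 3 of 28 Klhl and 4 of 12 Btbd genes were called. Without the rRNA-rich libraries the count was 17, with 4 higher and 13 lower, against 8.94% of genes (3.32% higher, 5.62% lower).

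**Figure D2:**
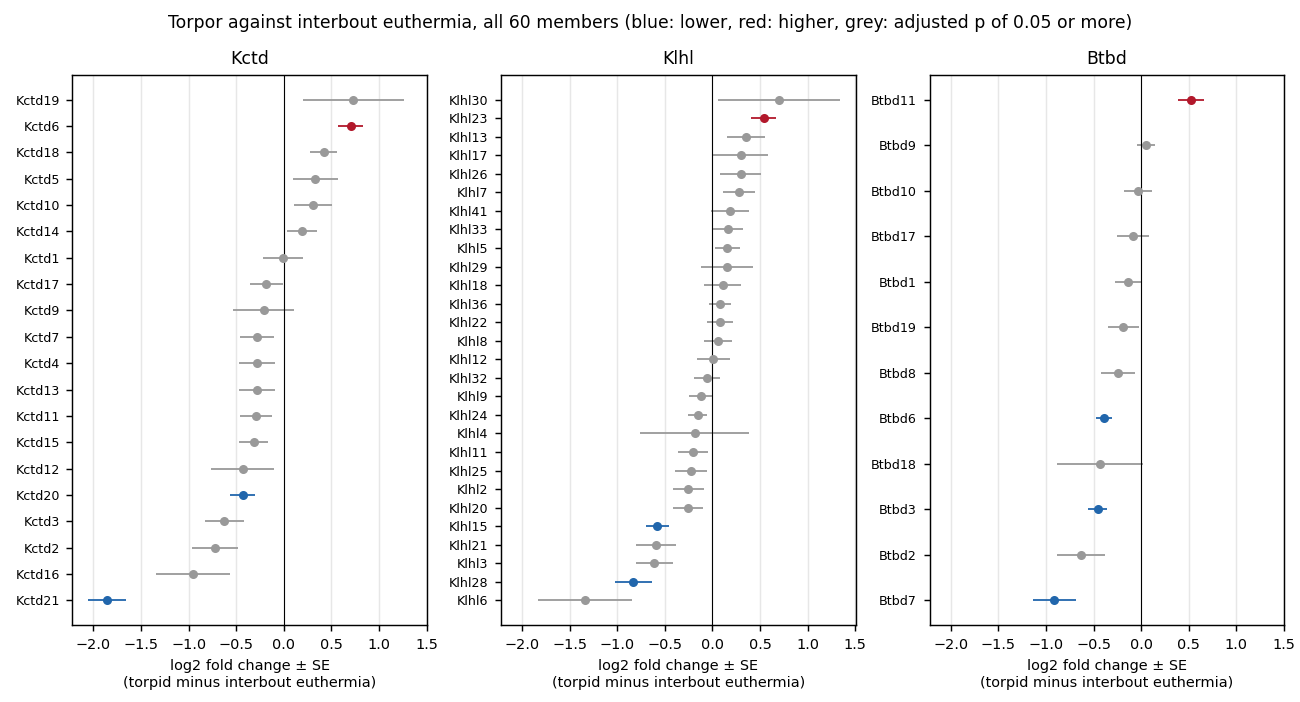
log2 fold change of each of the 60 members, torpid minus interbout euthermia, with its standard error (n = 6 libraries a group), in 1 panel per family. Blue points fell, red points rose and grey points were not called. Kctd21 lies furthest below 0, at -1.86, and Kctd6 is the called member furthest above 0, at 0.70.

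The Kctd proteins Kctd11, Kctd21 and Kctd6 form the KCASH group of adaptors, which bring the histone deacetylase HDAC1 to CUL3 and thereby restrain Hedgehog signalling through Gli factors. Their transcripts differed in what they did in torpor. Kctd21 fell 3.62-fold, Kctd6 rose, and Kctd11 was not called. In interbout euthermic animals the normalised level of Kctd21 ran from 7.24 through a median of 8.49 to 12.1 CPM. In torpid animals it ran from 2.04 through 2.28 to 3.18 CPM. Every torpid library was below every interbout library. The log2 fold change was -1.86 ± 0.20 (SE), with an adjusted p of 8.35e-08 and group means of 2.45 ± 0.464 and 8.93 ± 1.78 CPM (SD, n = 6 each). The torpid values rest on 39 to 75 fragments per library and the interbout ones on 151 to 236. Because this fall was known from these data beforehand, the p-values of Kctd21 are not independent evidence of it.

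The low level of Kctd21 was seen in the torpid group and in 1 other library. Its lowest, median and highest values were 6.13, 8.44 and 8.87 CPM in long photoperiod, 7.73, 9.44 and 10.9 CPM in pre-hibernation, and 8.80, 9.44 and 10.2 CPM in late pre-hibernation. In refractory animals they were 1.71, 7.14 and 9.94 CPM. The refractory value of 1.71 CPM is from the library richest in ribosomal RNA and rests on 5 fragments. Without that library the refractory mean was 7.58 ± 1.52 CPM (SD, n = 5). Leaving out any 1 torpid or interbout library moved the log2 fold change between -1.95 and -1.76, and it was called each time. Kctd21 lies at 101018482 to 101039199 on the minus strand of 1 contig of the BCM_Maur_2.0 assembly and is annotated as protein coding. Of its 3207 exon bases 539 (16.8%) overlap LOC121132879 on the other strand, and counting took no account of strand. That neighbour stood at 9.10 ± 2.25 CPM in torpid and 9.00 ± 2.31 CPM in interbout animals, a log2 fold change of 0.01 ± 0.18 (adjusted p = 0.990).

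Kctd6 went the other way. Its levels were 6.56, 8.84 and 11.3 CPM (lowest, median, highest) in interbout animals and 12.9, 14.5 and 16.7 CPM in torpid animals. The groups did not overlap. The log2 fold change was 0.70 ± 0.13, 1.63-fold higher, with an adjusted p of 0.000503. Medians in the remaining 4 groups lay between 9.77 and 11.6 CPM, and among their 24 libraries only 1, a late pre-hibernation library at 13.0 CPM, reached the torpid range.

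Kctd11, the founding KCASH gene, was at 23.8, 37.1 and 41.8 CPM in interbout animals and at 23.4, 31.3 and 32.5 CPM in torpid animals. The lowest interbout value is that of the rRNA-rich library, and the other interbout libraries were above every torpid one. With all libraries the log2 fold change was -0.29 ± 0.17 (adjusted p = 0.429). Once the 3 rRNA-rich libraries were left out, it became -0.40 (adjusted p = 0.0232), in a fit that called 8.94% of all genes. Kctd11 was called in 0 of 12 fits that left out 1 library, among them the fit without that interbout library.

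**Figure D3:**
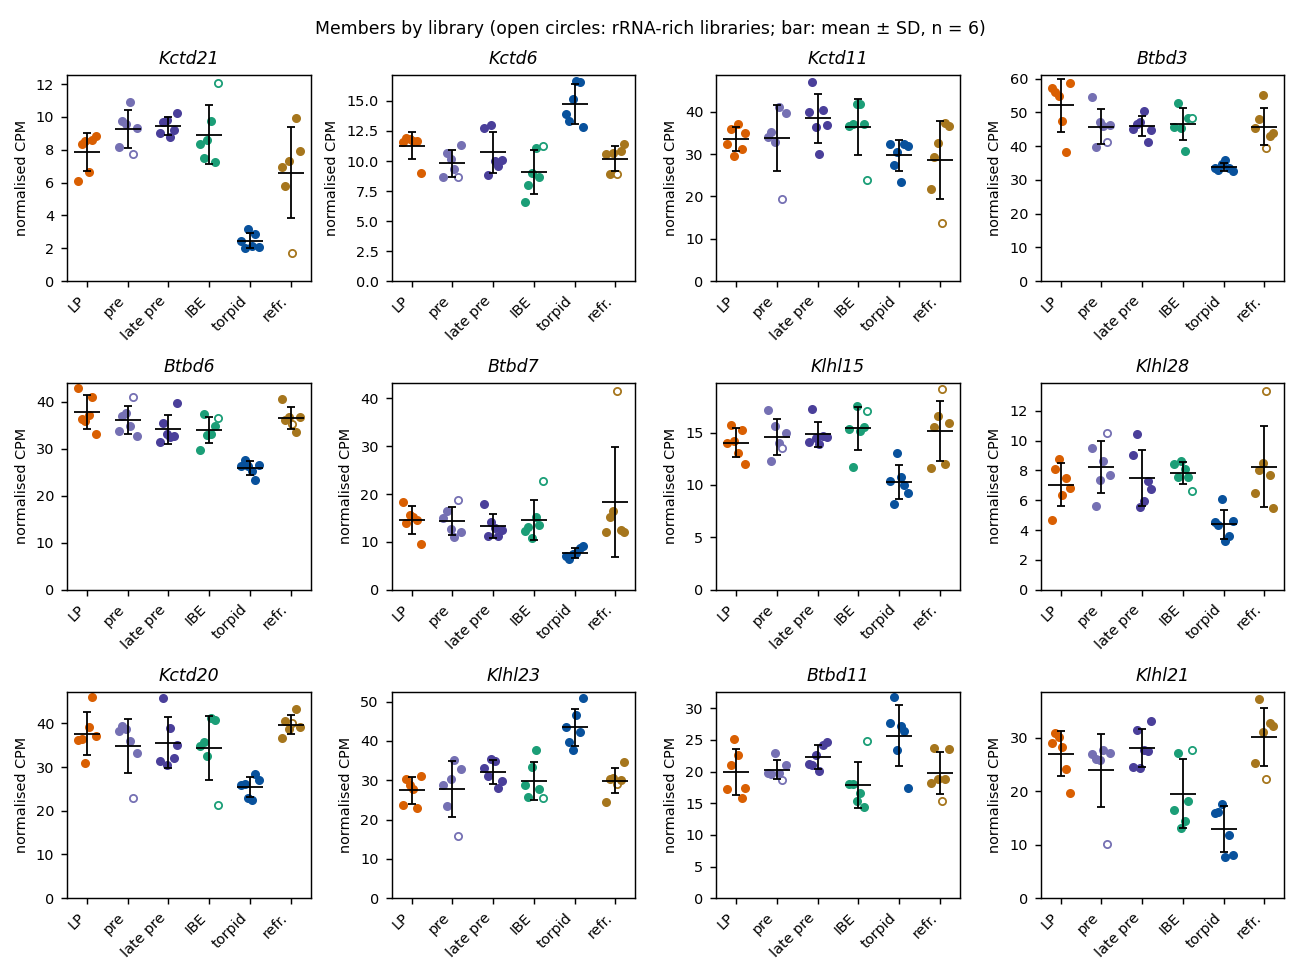
Normalised CPM of 12 members in each of the 36 libraries, with mean ± SD bars (n = 6). Groups from left to right are long photoperiod (LP), pre-hibernation (pre), late pre-hibernation (late pre), interbout euthermia (IBE), torpid and refractory (refr.), and open circles are the 3 rRNA-rich libraries. Torpid libraries of Kctd21 sit between 2.04 and 3.18 CPM, below all others but 1 refractory library, while those of Kctd6 and Klhl23 sit above all interbout libraries.

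Of the other Kctd genes, only Kctd20 was called. Kctd20 resembles Btbd10, and both bind the kinase Akt. Interbout levels were 21.3, 35.2 and 41.3 CPM and torpid levels 22.6, 26.05 and 28.4 CPM. The interbout library at 21.3 CPM is the rRNA-rich one, below every torpid library, and the other 5 lay above them all. The log2 fold change was -0.43 ± 0.13 with an adjusted p of 0.0499. That call was lost in 11 of 12 fits that left out 1 library, with an adjusted p up to 0.134 without interbout euthermia 4.

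Levels of 3 of the 12 Btbd genes fell in torpor and that of 1 rose. Btbd3, which steers dendrites toward active axons in the cortex, was at 38.6, 47.002 and 52.6 CPM in interbout animals and at 32.6, 33.6 and 35.8 CPM in torpid ones. All torpid libraries were below all interbout libraries, and the torpid group was the tightest of the 6, with an SD of 1.23 CPM. The log2 fold change was -0.46 ± 0.10 (adjusted p = 0.00307). Btbd6, an adaptor that targets the transcription factor Plzf during neurogenesis, went from 29.7, 34.0 and 37.4 CPM to 23.4, 26.4 and 27.7 CPM. Its groups did not overlap, and the log2 fold change was -0.39 ± 0.08 (adjusted p = 0.00257).

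Btbd7, known from the branching of epithelial glands, showed interbout levels of 10.9, 13.3 and 22.8 CPM and torpid levels of 6.46, 7.50 and 9.16 CPM. The ranges were separate, and the interbout value of 22.8 CPM came from the rRNA-rich library. Its log2 fold change was -0.91 ± 0.22 (adjusted p = 0.0122), and -0.75 without that library (adjusted p = 0.0472). Btbd11, which joins ankyrin repeats to its BTB domain and is found at synapses, was at 14.3, 17.4 and 24.8 CPM in interbout and at 17.5, 26.8 and 31.8 CPM in torpid animals. The groups overlapped, with 4 of 6 torpid libraries above all interbout ones. The interbout value of 24.8 CPM was that of the rRNA-rich library, and the next interbout library stood at 18.1 CPM. The log2 fold change was 0.52 ± 0.13 (adjusted p = 0.0158), and the call was lost in 3 of 12 fits without 1 library, at up to 0.0726 without torpid 2.

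Among the 28 Klhl genes, Klhl15 and Klhl28 fell and Klhl23 rose. Klhl15, an adaptor for a regulatory subunit of the phosphatase PP2A, was at 11.7, 15.4 and 17.5 CPM in interbout animals and at 8.21, 10.2 and 13.1 CPM in torpid animals. All but 1 torpid library were below the interbout range, and the log2 fold change was -0.58 ± 0.12 (adjusted p = 0.00326). Klhl28 was at 6.63, 7.82 and 8.61 CPM against 3.29, 4.42 and 6.06 CPM. There was no overlap between these groups, and the log2 fold change was -0.83 ± 0.19 (adjusted p = 0.00648). Klhl23 was at 25.5, 28.4 and 37.70 CPM in interbout and at 37.75, 42.9 and 50.8 CPM in torpid animals. Every torpid library was above every interbout library, the closest pair by a narrow margin, and the log2 fold change was 0.54 ± 0.13 (adjusted p = 0.0115).

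Summed markers of other cell types overlapped between the 2 groups. Neuron markers (19 genes) summed to between 468 and 930 CPM in interbout and between 537 and 919 CPM in torpid libraries. For 10 oligodendrocyte markers these ranges were 146 to 452 and 287 to 437 CPM, and for 14 microglia and macrophage markers 355 to 766 and 320 to 502 CPM. Those of 10 astrocyte markers were 3794 to 6054 and 4453 to 6129 CPM, and those of 19 tanycyte markers 3098 to 4136 and 2292 to 4118 CPM. No marker in any of these lists was at 0 over a group. Median log2 fold changes, torpid minus interbout, were 0.05 for neuron, 0.33 for oligodendrocyte and -0.31 for microglia and macrophage markers. They were 0.20 for astrocyte and -0.23 for tanycyte markers, beside 0.01 over all genes tested. Those of cilia, endothelial and mural, and pituitary markers were 0.07, 0.19 and 0.39. With neuron and oligodendrocyte marker levels as covariates all 10 calls remained, and 12 members were called. The share of all genes called in that fit is not given here. Markers of the other cell types were not used as covariates, and their part in the calls was not tested.

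The same 6 torpid libraries were also set against other animals, so the 3 torpor comparisons share them and their values are given side by side only. Against late pre-hibernation animals, of the same age and housing but not yet torpid, 10 members were called (16.7%), 2 higher and 8 lower, beside 4.45% of all genes (1.63% higher, 2.82% lower). Against long photoperiod animals, which differ also in age, day length and temperature, 15 were called (25%), 4 higher and 11 lower, beside 9.05% of all genes (4.32% higher, 4.73% lower). Of genes with a mean of 1 CPM or more, 5.13% were called against late pre-hibernation and 10.3% against long photoperiod. Between torpid and late pre-hibernation libraries the tanycyte marker Rax fell by 1.21, while the oligodendrocyte marker Sox10 rose by 1.30 and the cilia marker Dnai1 by 0.45. The other 18 tanycyte, 9 oligodendrocyte and 19 cilia markers tested were not called. In that order, median log2 fold changes of these lists were -0.17, 0.08 and 0.19. Oligodendrocyte markers summed to between 186 and 390.0 CPM in late pre-hibernation and neuron markers to between 698 and 1334 CPM, ranges that overlap the torpid ones given above. The part of these markers in the calls was not tested. Median log2 fold changes over the members were -0.20 and -0.08, beside medians of 0.02 and 0.01 over all genes. Without the rRNA-rich libraries 22 members were called against late pre-hibernation, 7 higher and 15 lower, beside 13.4% of genes (5.41% higher, 7.96% lower). Against long photoperiod they were 25, 7 higher and 18 lower, beside 21.2% (9.38% higher, 11.8% lower).

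Kctd21 fell by 1.94 ± 0.20 on the log2 scale against late pre-hibernation (adjusted p = 2.98e-08) and by 1.68 ± 0.20 against long photoperiod (adjusted p = 4.59e-07), and all torpid libraries lay below all of both groups. For Btbd6 the log2 fold changes were -0.40 and -0.54, with adjusted p of 0.00201 and 2.11e-05. Btbd3 gave -0.44 and -0.62 (adjusted p = 0.00411 and 3.70e-05). In both genes, too, torpid libraries were below every library of either group. Btbd7 was at -0.79 and -0.91 (adjusted p = 0.0336 and 0.00670), and the call against late pre-hibernation was lost in 6 of 12 fits without 1 library. Changes of Klhl15 were -0.53 and -0.45 and those of Klhl28 -0.77 and -0.68, all called. Those of Kctd20 were -0.48 and -0.56, also called, the first lost in 3 of 12 fits without 1 library.

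Klhl23 was at 0.44 against late pre-hibernation (adjusted p = 0.0480) and at 0.66 against long photoperiod (adjusted p = 0.000820). Kctd6 was at 0.46 and 0.39 (adjusted p = 0.0256 and 0.0448). In fits without 1 library the late pre-hibernation call was lost 11 times in 12 for Klhl23 and 7 times in 12 for Kctd6, and the long photoperiod call of Kctd6 was lost 11 times in 12. Btbd11 was called in neither, at 0.20 and 0.36.

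**Figure D4:**
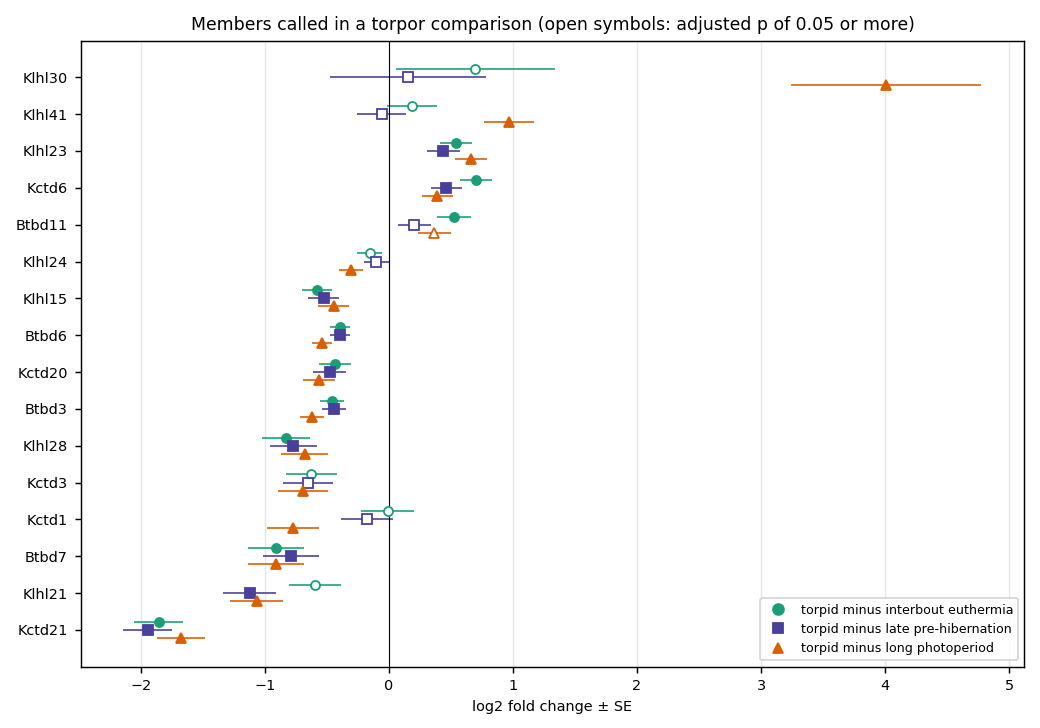
log2 fold change with standard error of the 16 members called in at least 1 torpor comparison, against interbout euthermia (circles), late pre-hibernation (squares) and long photoperiod (triangles), with 6 libraries a group and the torpid libraries shared. Filled symbols were called. Kctd21 lies between -1.94 and -1.68 in all 3, while Klhl30, Klhl41 and Kctd1 are called against long photoperiod only.

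Klhl21, an adaptor for the mitotic kinase Aurora B, is a case where the interbout group stood between the others. Its lowest, median and highest levels were 24.3, 27.6 and 33.2 CPM in late pre-hibernation, 13.1, 17.4 and 27.8 CPM in interbout euthermia and 7.80, 13.9 and 17.7 CPM in torpor. Torpid libraries were below every late pre-hibernation library, but overlapped the interbout ones. Klhl21 fell by 1.12 ± 0.21 on the log2 scale in torpor against late pre-hibernation (adjusted p = 0.000862) and by 1.07 against long photoperiod (adjusted p = 0.000803). Against interbout animals the log2 fold change was -0.60 ± 0.21 (adjusted p = 0.119), and interbout against late pre-hibernation gave -0.53 ± 0.21 (adjusted p = 0.639).

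The other calls of torpid against long photoperiod were Klhl41, Klhl30, Kctd1, Kctd3 and Klhl24. Klhl41, which stabilises thin-filament proteins in muscle, rose by 0.97 ± 0.20 on the log2 scale (adjusted p = 0.00127), from 2.20 ± 0.696 to 4.29 ± 0.966 CPM (SD, n = 6 each). Klhl30 rose from 0.160 ± 0.146 to 2.71 ± 2.51 CPM (log2 fold change 4.01 ± 0.77, adjusted p = 0.000483), where long photoperiod libraries held 0 to 9 fragments. Torpid values of Klhl30 ran from 0.593 to 6.10 CPM, so the group is wide as well as higher. Kctd1, a repressor of AP-2 transcription factors, fell by 0.77 (adjusted p = 0.0149), a call lost without long photoperiod 1. Kctd3 fell by 0.69 (adjusted p = 0.0251) and Klhl24, an adaptor known for keratin turnover, by 0.31 (adjusted p = 0.0471), and these calls were lost in 3 and 9 of 12 fits without 1 library. Some markers of several cell types also differed here. The 12 pituitary markers summed to between 172 and 2414 CPM in long photoperiod and between 94.3 and 198 CPM in torpid libraries, and 5 of 9 tested fell. Of 19 tanycyte markers 3 fell, Dio2 by 2.62, Penk by 1.57 and Rax by 0.94, as did the astrocyte marker Ntsr2, by 1.35. The endothelial marker Kdr rose by 0.76 and the cilia marker Dnai1 by 0.44. The other 16 tanycyte, 9 astrocyte, 16 endothelial and mural and 19 cilia markers tested were not called. In that order, median log2 fold changes of these lists were 0.09, 0.17, 0.05 and -0.04. The part of the called markers in the 15 calls against long photoperiod was not tested.

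Members that act on GABA-B receptors, RhoA and WNK kinases were not called by edgeR in torpid against interbout animals. Of all named members that edgeR did not call in this comparison, DESeq2 called 1 and limma voom 4. The fit without the rRNA-rich libraries called 2. Those named members also include Kctd11 and members highest per kb. The GABA-B receptor subunits Kctd12 and Kctd16 had log2 fold changes of -0.43 ± 0.33 (adjusted p = 0.610) and -0.95 ± 0.39 (adjusted p = 0.197). Kctd16 was low throughout, at 1.91 ± 0.702 CPM in interbout and 0.987 ± 0.528 CPM in torpid animals (SD, n = 6 each). Kctd12 owed its sign to 1 library: interbout euthermia 6 stood at 38.3 CPM, the next interbout library at 13.8 CPM, and without it the log2 fold change was 0.09. Kctd10 and Kctd13, adaptors for the GTPase RhoA, lay on opposite sides of 0. The log2 fold change of Kctd10 was 0.31 (55.2 ± 9.44 and 68.5 ± 6.59 CPM) and that of Kctd13 -0.29 (17.99 ± 2.55 and 14.8 ± 1.85 CPM), neither called. Kctd10 shares 11.7% of its exon bases with Myo1h on the other strand, which stood under 1 CPM in both groups. Klhl3, the adaptor for WNK kinases, was at -0.61 ± 0.19 (adjusted p = 0.0675), with 5 of 6 torpid libraries below all interbout ones. With 1 library left out, its log2 fold change ran from -0.71 to -0.41 and was called in 2 of 12 fits. The highest adjusted p, 0.276, came without the rRNA-rich interbout euthermia 6, which stood at 13.1 CPM, the next interbout library at 6.86 CPM.

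The ligase that the adaptors join was followed with lists of related genes, tested in the same fit. CUL3 itself, named here because every adaptor is defined by it, was at 42.5 ± 3.84 CPM in torpid and 45.4 ± 4.90 CPM in interbout animals (log2 fold change -0.09 ± 0.10, adjusted p = 0.736). Rbx1 was at 138 ± 7.84 and 138 ± 17.1 CPM. Of 33 cullin, NEDD8 and COP9 signalosome genes 2 rose and 2 fell. Cops7b, a signalosome subunit, fell by 0.62 (adjusted p = 0.00391), and Dcun1d3, which helps NEDD8 onto cullins, fell by 0.78 (adjusted p = 0.0142). Dcun1d5, of the same family, rose by 0.69 (adjusted p = 0.0167). The fourth was Glmn, an inhibitor of RBX1, at 0.42. The median of the list was 0.04, beside 0.01 over all genes, and limma voom called 7 of the list in place of 4.

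Among 22 tested BTB adaptors with other names, 1 rose and 2 fell, where DESeq2 called 6 and limma voom 8. Of those that fell, Ibtk did so by 0.41 (adjusted p = 0.00242). Lztr1, an adaptor for RAS-family GTPases, rose by 0.40 (adjusted p = 0.0135). Of 16 Hedgehog genes and KCASH targets 2 fell: the co-receptor gene Cdon by 0.73 (adjusted p = 0.0106) and the receptor gene Ptch1 by 0.70 (adjusted p = 0.0285). Hdac1, the substrate of the KCASH adaptors, was at 167 ± 21.5 CPM in torpid and 153 ± 15.3 CPM in interbout animals (adjusted p = 0.689). Gli1 was at 1.06 ± 0.453 CPM in torpid and 0.547 ± 0.450 CPM in interbout animals (adjusted p = 0.411). Gli2 was at 2.34 ± 0.605 and 1.73 ± 0.446 CPM (adjusted p = 0.712).

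Of 21 genes for known substrates of BTB adaptors 1, the autophagy kinase gene Ulk1, fell by 0.48 (adjusted p = 0.0384), where DESeq2 called 2 and limma voom 3. No gene was called by edgeR among 11 GABA-B receptor, G protein beta and channel genes, where 2 had an unadjusted p under 0.05 and DESeq2 and limma voom called 1 each. Nor was any among 12 targets of NRF2, the substrate of the BTB protein Keap1, where 3 had an unadjusted p under 0.05, DESeq2 called 1 and limma voom 3. The list medians were -0.28 for substrates, -0.20 for Hedgehog genes, -0.14 for other adaptors, -0.05 for the GABA-B list and 0.16 for NRF2 targets.

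Outside torpor, few members differed between successive stages. From long photoperiod to pre-hibernation, when animals entered short days and cold and also differed in age, 1 member rose and 1 fell, 2 of 60 (3.33%) beside 2.29% of all genes (1.61% higher, 0.681% lower). Klhl30 rose from 0.160 ± 0.146 to 1.23 ± 0.535 CPM (log2 fold change 2.89 ± 0.76, adjusted p = 0.0310). Kctd4 fell from 21.4 ± 5.47 to 12.8 ± 1.53 CPM (log2 fold change -0.75 ± 0.20, adjusted p = 0.0305). Each call was lost in 6 of 12 fits that left out 1 library, and both were lost when long photoperiod 1 or pre-hibernation 4 was left out. With the rRNA-rich libraries set aside, 8 members were called, 5 higher and 3 lower, against 6.37% of genes (3.56% higher, 2.82% lower). Pituitary markers summed to 172 to 2414 CPM in long photoperiod and 87.2 to 237 CPM in pre-hibernation, and 2 of 9 tested fell. The tanycyte marker Dio2 fell by 3.06 and the astrocyte marker Ntsr2 by 2.03, and the endothelial marker Kdr rose by 1.00. The other 18 tanycyte, 9 astrocyte and 16 endothelial and mural markers tested were not called. In that order, median log2 fold changes of these lists were 0.30, -0.37 and -0.04. The part of the called markers in the 2 calls was not tested.

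No member was called by edgeR between pre-hibernation and late pre-hibernation, where 1 had an unadjusted p under 0.05 and DESeq2 and limma voom also called 0. None was called between late pre-hibernation and interbout euthermia, where 5 had an unadjusted p under 0.05, DESeq2 called 0 and limma voom 3. Of all genes tested, 0% were called in either comparison. Without the rRNA-rich libraries the second comparison again gave 0 members, beside 0.855% of genes. The 5 were Klhl21, Btbd11, Klhl7, Kctd4 and Klhl8, with log2 fold changes from -0.53 to 0.41.

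**Figure D5:**
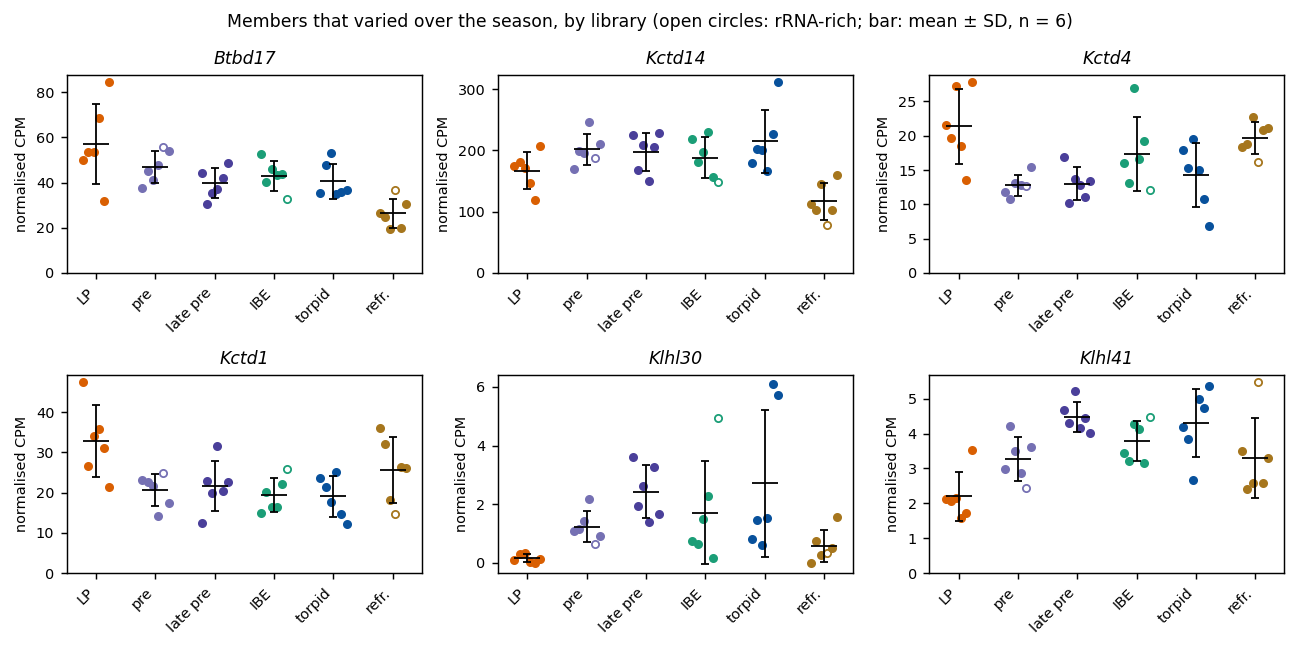
Normalised CPM of 6 members in each library, with mean ± SD bars (n = 6), groups as long photoperiod (LP), pre-hibernation (pre), late pre-hibernation (late pre), interbout euthermia (IBE), torpid and refractory (refr.), with rRNA-rich libraries as open circles. Btbd17 is lowest in refractory libraries, at 19.4 to 36.7 CPM, and Klhl30 is near 0 in long photoperiod.

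At the end of the season, refractory animals were compared with long photoperiod animals of the same labelled age. The 2 groups differed also in day length and cage temperature, so season and housing cannot be told apart here. Btbd17 was the single member called (1.67%, beside 0.329% of all genes, 0.0781% higher and 0.251% lower). Its levels were 31.9, 53.4 and 84.6 CPM (lowest, median, highest) in long photoperiod and 19.4, 25.7 and 36.7 CPM in refractory animals. All but 1 refractory library lay below the long photoperiod range. Btbd17 fell by 1.14 ± 0.17 on the log2 scale (adjusted p = 0.000471), and by 1.24 without the rRNA-rich libraries, where it was again the single call, beside 0.531% of genes (0.0838% higher, 0.447% lower). Its means in the 4 stages between were 46.8 ± 7.02, 39.7 ± 6.62, 43.0 ± 6.64 and 40.5 ± 7.86 CPM, in the order pre-hibernation, late pre-hibernation, interbout euthermia and torpid (SD, n = 6 each). Beside it, the astrocyte marker Ntsr2 fell by 1.22 and the tanycyte marker Dio2 by 3.19 between the same groups, while the other 9 astrocyte markers and the other 18 tanycyte markers tested were not called. Their part in the fall of Btbd17 was not tested.

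Kctd14, the most abundant member, was also lowest in refractory animals, at 117 ± 30.3 CPM, against group means from 167 ± 30.4 to 215 ± 52.0 CPM elsewhere (SD, n = 6 each). It was called over the 6 groups (adjusted p = 0.00177), but refractory against long photoperiod gave -0.51 ± 0.16 (adjusted p = 0.108). Klhl6, best known from B lymphocytes, was called over the 6 groups (adjusted p = 0.0163) with its highest mean in refractory animals, 3.09 ± 3.28 CPM. That mean includes 9.59 CPM in the rRNA-rich refractory library, and without it the group stood at 1.79 ± 0.847 CPM (SD, n = 5). Without the rRNA-rich libraries the interbout euthermic mean was the highest, at 2.00 ± 1.14 CPM (SD, n = 5).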

How the data were processed

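RNA was sequenced from 36 laser-captured samples in 6 groups of 6. Per the file headers, the authors counted read pairs over exons by gene with featureCounts 2.0.1, without strand, on the RefSeq annotation of BCM_Maur_2.0, from files named for STAR. The deposited values are raw counts. For trimming and alignment, no settings were found in the labels or headers. Groups came from titles. The members and the gene lists were chosen with earlier results of these data known, among them the fall of Kctd21 in torpor.

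edgeR 4.0.16 (R 4.3.3) scaled counts by TMM, kept 17926 genes by filterByExpr and fitted all 6 groups at once, with 30 residual degrees of freedom, by robust quasi-likelihood. p-values were adjusted by Benjamini-Hochberg over those genes and called under 0.05. Normalised CPM are counts scaled to the TMM-adjusted library total. Alternatives were RLE factors, DESeq2 1.42.0, limma 3.58.1 voom with quality weights, no filter, a replicate block, neuron and oligodendrocyte covariates and each library left out. Leaving out the 3 rRNA-rich libraries, or ribosomal and mitochondrial genes, was chosen after seeing the data. The code was tested on simulated data. No 2 libraries held identical counts, and 8 members share exon bases with another gene, all on the other strand.

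Named with values in full were members called in torpid against interbout animals and the KCASH genes. Named with means were members called elsewhere (at most 8 a comparison), Kctd12, Kctd16, Kctd10, Kctd13, Klhl3, the 3 highest per kb in each family, and the called list genes with the smallest p. Genes named beyond this are Cul3, Rbx1, Hdac1, Gli1 and Gli2, chosen as ligase parts and targets, and LOC121132879 and Myo1h as overlapping genes. The 5 genes of unadjusted p under 0.05 between late pre-hibernation and interbout animals, and calls beyond the 8 smallest p, were named after their values were seen. One called gene among the other BTB adaptors is not reported here.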

Additional observations from a re-analysis of the deposited data

Results flagged for a closer look

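In groups of 6, a library was set apart when its gap to the nearest other library was large against the range of the group (Dixon's test). Over 192 groups of 32 members this happened 25 times, where chance gives about 5%, and 19 of the 25 were rRNA-rich libraries. Values are normalised CPM.

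Refractory 4 was far above its group for Btbd7 (41.5), Klhl6 (9.59), Klhl41 (5.48) and Kctd16 (4.11), and far below it for Kctd10 (14.4), Kctd13 (2.74), Klhl7 (44.9) and Klhl5 (35.6). Interbout euthermia 6 was high for Btbd7 (22.8), Btbd11 (24.8), Kctd12 (38.3), Klhl3 (13.1) and Kctd17 (78.5) and low for Kctd11 (23.8). Pre-hibernation 5 was high for Kctd3 (11.7) and Kctd17 (74.7) and low for Klhl21 (10.1), Kctd10 (30.5) and Kctd5 (59.6).

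In libraries that were not rRNA-rich, late pre-hibernation 2 was high for Klhl15 (17.2), torpid 1 for Kctd10 (81.1), torpid 4 for Kctd17 (56), interbout euthermia 5 for Klhl5 (99.8) and long photoperiod 6 for Klhl41 (3.54), and long photoperiod 6 was low for Kctd6 (8.96). No library was set apart for Kctd21 in any group by this test.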

How the results depend on the processing

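Of 56 calls of named members, 56 were kept with RLE factors, DESeq2, limma voom and without the rRNA-rich libraries, 54 without ribosomal and mitochondrial genes, 52 with marker covariates, and 46 with no filter, which tests more genes. Counts of called members moved by over 1.5 times as follows. With limma voom they were 37 over the 6 groups, 19 for torpid against interbout, 27 against late pre-hibernation and 23 against long photoperiod, 12 for pre-hibernation against long photoperiod and 3 for interbout against late pre-hibernation. Without the rRNA-rich libraries the first 5 were 33, 17, 22, 25 and 8. The limma voom counts are given without a share over all genes. Over the 6 groups limma voom also called 21 of 33 cullin, NEDD8 and COP9 signalosome genes, where edgeR called 7. It called 14 of 19 neuron markers, where edgeR called 3, but 4 of 17 endothelial and mural markers, where edgeR called 5. Pre-hibernation against long photoperiod gave 0 with no filter and 1 with covariates. The cause was not tested. With no filter the median log2 fold change of all genes was 0.14 for refractory against long photoperiod, beside 0.03 with the filter.

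Leaving out 1 library gave 16 to 22 members over the 6 groups, 8 to 10 for torpid against interbout, 7 to 9 against late pre-hibernation, 11 to 15 against long photoperiod, 0 to 2 for pre-hibernation and 1 to 2 for refractory against long photoperiod, and 0 to 0 in the remaining 2 comparisons. In torpid against interbout, the log2 fold change of Kctd12 turned to 0.0791 without the rRNA-rich libraries and ran from -0.789 to 0.0880 with 1 library left out, the latter without interbout euthermia 6, and that of Klhl22 turned to -0.00526 without the rRNA-rich libraries.

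Replicate numbers did not pair the libraries: same-numbered libraries had a mean correlation of -0.003 (90 pairs, -0.34 to 0.48) and others 0.005. With the replicate block, counts were 16 over the 6 groups, 9 for torpid against interbout, 9 against late pre-hibernation, 14 against long photoperiod, 2 for pre-hibernation and 1 for refractory against long photoperiod, and 0 in the remaining 2. The block lost 6 of 56 calls.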
